A study of Mus musculus with 9 samples.

Results

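The Gstm cluster of mouse chromosome 3 holds Gstm1 to Gstm7, and Eps8l3 lies at its edge. These 8 genes, of 22380 annotated as protein-coding, were followed through H3K27ac in naive CD8+ T cells. They were chosen from measured values, namely earlier results of the same island lists, so what follows describes the locus and supports no claim about genes at large. All islands from 100 kb before to 100 kb after the joint span of the genes were taken, which were 13 of 65563 islands in WT and 36 of 82213 in dKO. The joint span was chr3:107680148-107847812 on mm9 and the window was chr3:107580148-107947812, or 367.665 kb.

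H3K27ac ChIP-seq was performed on GFP+ TCRbeta+ CD62Lhi CD44lo-med CD8+ T cells sorted from the spleen. Both groups carried hCD2-Cre, a transgene that drives recombination mainly after T cells mature, together with a Rosa26 GFP reporter, and sorting on GFP kept cells with Cre activity. WT cells were Tcf7+/+ Lef1+/+, and dKO cells were Tcf7 fl/fl Lef1 fl/fl before excision and Tcf1-/-Lef1-/- by label, with the mice on the C57BL/6 background, of both sexes and 6 to 12 weeks old. The authors pooled 4 WT and 3 dKO samples into 1 island list per genotype, so differences could not be set against replicate spread, and a 95% interval covers counting error only.

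Mu class glutathione transferases, the products of the Gstm genes, join glutathione to electrophilic compounds and so take part in detoxification. In many tissues they are known as targets of the oxidant-responsive factor Nrf2, which binds antioxidant response elements. Eps8l3 is related to Eps8, an adaptor that links receptor signalling to the actin cytoskeleton. H3K27ac marks active promoters and enhancers, and SICER joins enriched windows of this mark into islands, each with a read count. Tcf1 and Lef1 bind a shared motif with the core CTTTGA.

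Sequences from the locus are shown first because islands of dKO cells reached the starts of some of these genes and not of others. RefSeq promoters of the GRCm38.p6 build (300 bases) were available for all 8 genes, with 13 promoters in all, and each matched the mm9 genome exactly once. Given on the strand of the gene are up to 250 bases of the promoter, ended before both the RefSeq start and the start of the mm9 gene model where the sources differ, for Eps8l3, whose start lay in a dKO island only, for Gstm5 and Gstm3, whose starts lay in no island, and for Gstm1 and Gstm4, whose starts lay in islands of both lists. The last sequence is an accessible site on the list of sites that the study linked to genes, and it lay inside the dKO island chr3:107597601-107602400, upstream of Eps8l3, which had 473 counts. The study placed this site in its cluster of sites more accessible in dKO and linked to genes with higher expression there. The protein-coding gene nearest to that island was Csf1, 34214 bp away, and the gene that the study linked to the site is not reported here. Another site of the same cluster, chr3:107563178-107563351, lay outside the window and within Csf1. It was under islands of both lists, with 1422 counts in WT and 1525 in dKO. Capitals mark the Tcf/Lef core CTTTGA or the antioxidant response core TGACNNNGC on either strand.
Eps8l3, chr3:107679898-107680147, plus strand: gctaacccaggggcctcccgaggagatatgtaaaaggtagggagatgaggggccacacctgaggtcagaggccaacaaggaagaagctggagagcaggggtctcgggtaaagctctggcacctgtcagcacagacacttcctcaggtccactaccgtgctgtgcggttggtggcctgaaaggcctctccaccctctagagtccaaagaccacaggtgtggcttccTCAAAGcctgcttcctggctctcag
Gstm5, chr3:107698522-107698738, plus strand: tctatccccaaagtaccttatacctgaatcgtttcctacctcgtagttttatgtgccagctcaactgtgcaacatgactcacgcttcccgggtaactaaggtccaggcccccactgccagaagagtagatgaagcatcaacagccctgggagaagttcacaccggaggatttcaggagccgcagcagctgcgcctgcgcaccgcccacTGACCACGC
Gstm3, chr3:107772202-107772342, minus strand: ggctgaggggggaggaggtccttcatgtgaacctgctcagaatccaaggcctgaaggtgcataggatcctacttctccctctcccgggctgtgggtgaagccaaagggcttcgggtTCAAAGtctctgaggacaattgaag
Gstm1, chr3:107820892-107821141, minus strand: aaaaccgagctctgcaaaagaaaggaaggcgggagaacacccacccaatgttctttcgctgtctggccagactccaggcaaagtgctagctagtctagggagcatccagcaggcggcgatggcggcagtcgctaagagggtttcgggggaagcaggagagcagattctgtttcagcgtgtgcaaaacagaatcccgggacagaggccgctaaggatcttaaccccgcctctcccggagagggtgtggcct
Gstm4, chr3:107847813-107848024, minus strand: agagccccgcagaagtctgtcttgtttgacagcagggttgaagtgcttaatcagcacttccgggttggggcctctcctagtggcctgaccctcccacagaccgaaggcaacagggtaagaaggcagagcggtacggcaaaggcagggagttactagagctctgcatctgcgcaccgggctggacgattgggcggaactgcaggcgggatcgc
Accessible site, chr3:107599589-107599729, plus strand: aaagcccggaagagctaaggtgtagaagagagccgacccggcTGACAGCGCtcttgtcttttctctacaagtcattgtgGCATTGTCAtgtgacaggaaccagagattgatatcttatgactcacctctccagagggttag
The Tcf/Lef core occurred in the promoters of Eps8l3 and Gstm3, or 2 of 13, against 16.0% of all 32851 mouse promoters of this length. The antioxidant response core occurred in those of Gstm5 and of 1 of the Gstm7 starts, again 2 of 13, against 12.4% of all promoters. The accessible site of 141 bp held 2 antioxidant response cores and no Tcf/Lef core. Among 2607 stretches of the same length, tiled over the window, 5.6% held the former core and 10.4% the latter. A match of letters shows no binding.

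In the window as a whole, dKO cells had more islands, which covered more of the DNA. The 13 WT islands held 19511 counts over 103.2 kb, and the 36 dKO islands held 20934 counts over 178.8 kb. Divided by the list's island total (CPM), the window had 236.0 CPM in WT and 363.0 CPM in dKO. The log2 ratio of dKO to WT was 0.62 (95% Wilson interval 0.59 to 0.65), just over the ratio of 1.5 at which a value was called higher. The call was lost with islands of at least 200 counts (0.57) and over the joint span alone (0.38). Covered width was 1.73 times larger in dKO, and per covered kb the log2 ratio was -0.17, so the higher sum went with more covered DNA and not with denser islands. In bulk cells, a mark on fewer cells and less of the mark per cell cannot be told apart.

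The added islands were not spread evenly along the window. In the 100 kb before Eps8l3, the WT list had no island and the dKO list had 12, with 7412 counts that covered 69.4% of the stretch. From Eps8l3 to Gstm2, WT had 1 island of 345 counts and dKO had 4 islands with 1091 counts (log2 ratio 2.18, 2.01 to 2.36). Between Gstm2 and Gstm1 there was no WT island and 1 dKO island of 134 counts. From Gstm1 to Gstm4, with islands placed by their middles, WT had 43.72 CPM and dKO had 72.16 CPM (0.72, 0.66 to 0.79). That ratio rested on 1 island, because the WT island over the start of Gstm4 has its middle just past the gene. Counting every island that overlaps the stretch, WT had 70.83 CPM and the ratio was 0.03. After Gstm4, by the same placement, WT was higher, with 188.1 CPM against 141.1 CPM in dKO (-0.42, -0.45 to -0.38). Without the island over the start of Gstm4, WT had 161.0 CPM and the ratio was -0.19. That value still held the WT island at the window's edge, chr3:107946401-107959800, with 3861 counts and 1.412 of its 13.4 kb inside. The dKO list was split there, so its island of 1479 counts was taken and the next, of 630 counts, fell outside. Over the merged region at that edge the ratio was -0.13. The ratio of the stretch without the islands at the edge was not taken, so no WT excess past Gstm4 is read from these sums.

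**Figure D1:**
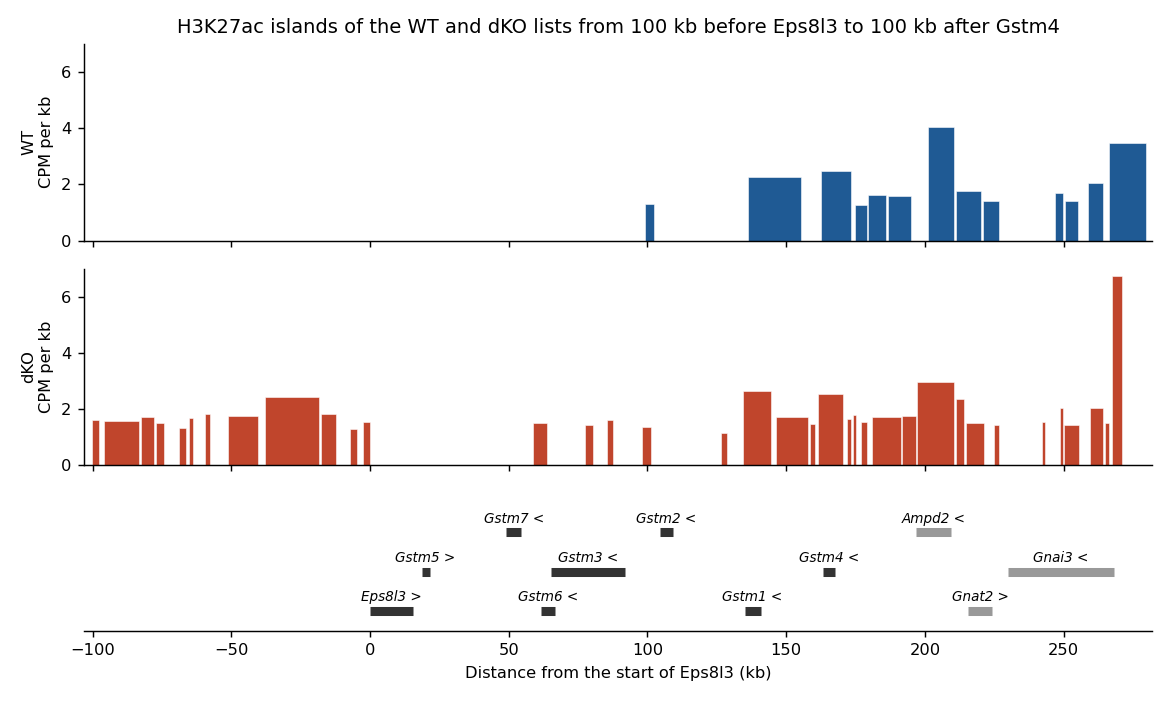
Islands of the window in WT (top) and dKO (middle) cells, drawn to scale as boxes whose height is CPM per kb, against distance from the start of Eps8l3 in kb. Genes are drawn below, with members in black, neighbours in grey and the arrow giving the strand. WT islands begin 99.3 kb after the start of Eps8l3, whereas dKO islands cover 69.4% of the 100 kb before it.

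**Figure D2:**
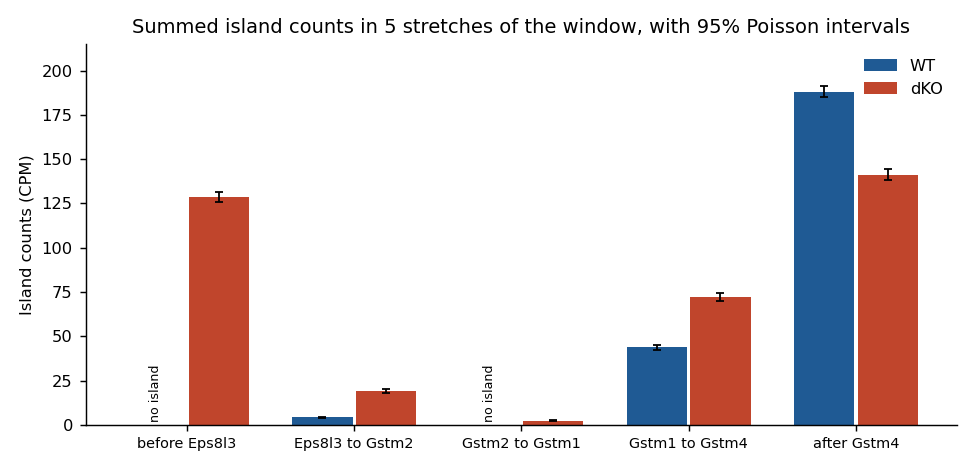
Summed island counts (CPM) of WT and dKO cells in 5 stretches of the window, with islands placed by their middles and bars giving 95% exact Poisson intervals of counting error. dKO reaches 128.5 CPM before Eps8l3, where WT has no island, and the bars for Gstm1 to Gstm4 leave out the WT island over the start of Gstm4, with which WT has 70.83 CPM there.

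The stretch before Eps8l3 belonged to a longer gap in the WT list. No WT island lay in chr3:107569201-107779400, or 210.2 kb, which runs from near Csf1, the gene of a macrophage growth factor, past Eps8l3, Gstm5, Gstm7, Gstm6 and Gstm3. This gap was singled out after its values were seen. It held 16 whole dKO islands with 8960 counts (155.4 CPM), which covered 87.0 kb or 41.4% of it. Of these, 13 islands with 8134 counts lay before or at the start of Eps8l3, and 3 lay among the Gstm genes.

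Gaps of this length in the WT list rarely held so many dKO counts. Of 1491 WT gaps of at least 200 kb, 660 held a whole dKO island, the median gap held 0 counts and the 90th percentile was 635. The only gap with more dKO counts than the one at Eps8l3 was chr7:149742601-150091600, with 9336 over a longer stretch. By covered share the gap at Eps8l3 stood first of the 1491, and 6 gaps, itself included, held as many islands. As the locus and the gap were picked from the same islands, these ranks only describe it and lend no support. Gaps shorter than 200 kb were not compared. In the mirror image, 1422 gaps of at least 200 kb in the dKO list held up to 15687 WT counts. These are raw counts of a deeper list, with 82668007 island counts in WT against 57665047 in dKO. They are therefore not set against the dKO counts above.

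**Figure D3:**
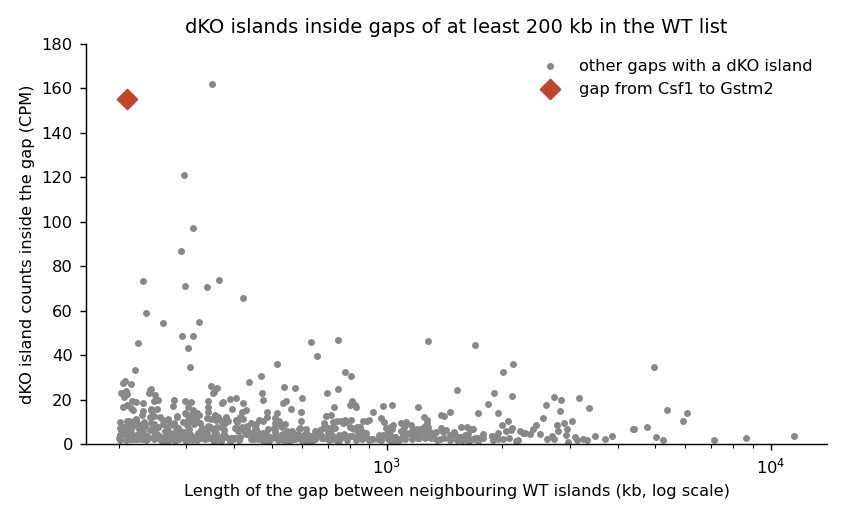
Gaps of at least 200 kb between neighbouring WT islands, by length (kb, log scale) and by the dKO island counts inside them (CPM). Each point is a gap that holds a dKO island, and the diamond, at 210.2 kb and 155.4 CPM, is the gap from near Csf1 to Gstm2, with 1 other gap above it.

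Within the gap, counts were concentrated in a few wide islands upstream of Eps8l3. The largest, chr3:107642201-107661800, had 2740 counts over 19.6 kb and ended 18348 bp before the gene. The next were chr3:107584201-107597000 with 1149 counts over 12.8 kb and chr3:107628801-107639800 with 1101 counts over 11.0 kb. Together these 3 islands held 55.7% of the counts of the gap. Of all 21511 regions with islands in dKO only, whose median was 175 counts over 2.0 kb, 10 were as large as the first, itself included, 97 as large as the second and 104 as large as the third. The other islands of the gap were smaller, at 137 to 722 counts.

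The density of these islands was within the range that the WT list also holds. The 16 dKO islands had 1.29 to 2.42 CPM per kb, with a median of 1.58. The median over all WT islands was 1.72 CPM per kb and the 5th percentile was 1.29, and 36.4% of WT islands were at or under the median of the gap islands. The lists say nothing of reads outside islands, so the gap has no WT count, not even 0, and no fold is given for it.

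Eps8l3 (ENSMUSG00000040600, chr3:107680148-107695817, plus strand) had no island in WT and 1 in dKO, counted over the gene body and the 1 kb before its start. The dKO island, chr3:107677601-107680200, had 230 counts over 2.6 kb (3.99 CPM) and ended 52 bp past the start, so it covered the stretch printed above and almost none of the gene body. The nearest WT island was 99.3 kb from the start. Among regions with islands in dKO only this island was unremarkable in size, since 30.4% were as large.

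Gstm5 (ENSMUSG00000004032, chr3:107698739-107701604, plus strand), a mu class enzyme known from brain and testis, had no island in either list. Its start lay 18.5 kb from the nearest dKO island and 80.7 kb from the nearest WT island. Gstm7 (ENSMUSG00000004035, chr3:107729252-107734735, minus strand) likewise had none, but a dKO island lay 4.27 kb from its start. Gstm2 (ENSMUSG00000040562, chr3:107784620-107789371, minus strand) had none either, and here islands of both lists lay close, 6.77 kb away in WT and 7.97 kb away in dKO. That pair formed the only region between Eps8l3 and Gstm1 found in both lists, with 345 WT and 265 dKO counts (log2 ratio 0.14, -0.09 to 0.37).

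Gstm6 (ENSMUSG00000068762, chr3:107741765-107746667, minus strand) had 1 dKO island of 412 counts over 4.8 kb (7.15 CPM) and no WT island. This island, chr3:107739001-107743800, lay over the 3′ end of the gene and ended 2.87 kb short of its start. Gstm3 (ENSMUSG00000004038, chr3:107745251-107772201, minus strand) had 2 dKO islands with 414 counts together (7.18 CPM), and no WT island. They lay at chr3:107757801-107760400, within an intron, and at chr3:107765401-107767600, which touched an exon, 4.60 kb from the start. The annotated Gstm6 and Gstm3 genes overlap, but no island lay in their overlap. Thus Eps8l3 alone of these 3 genes had its dKO island at the start.

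Gstm1 (ENSMUSG00000058135, chr3:107815173-107820891, minus strand), a mu class enzyme abundant in liver, had islands over its start in both lists. The WT island had 3614 counts over 19.2 kb (43.72 CPM) and the dKO island had 1563 over 10.2 kb (27.10 CPM). By these islands the gene was 1.5 times or more higher in WT (log2 ratio -0.69, -0.78 to -0.60), yet per covered kb the ratio was 0.22. The islands differed in their borders: the WT island continued where the dKO list had a second island, chr3:107826401-107838000, with 1136 counts. Over the merged region, chr3:107814601-107838000, the WT list had 3614 counts and the dKO list 2699, a log2 ratio of 0.10 (0.03 to 0.17). Merging the islands therefore ended the gene-level call.

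Gstm4 (ENSMUSG00000027890, chr3:107843326-107847812, minus strand), the last member of the cluster, also had an island over its start in both lists. WT had 2241 counts over 11.0 kb (27.11 CPM) and dKO had 1310 over 9.0 kb (22.72 CPM), with a log2 ratio of -0.25 (-0.35 to -0.16) and of 0.03 per covered kb. Over the merged region, chr3:107841601-107853600, the ratio was -0.10. The value was under the ratio of 1.5 by each of these measures.

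Of the 8 members, 2 had islands in both lists, 3 in dKO only, 0 in WT only and 3 in neither. Over all protein-coding genes, 2.52% had islands in dKO only and 30.5% in neither list. As the members were chosen on this contrast, nothing is read from these shares. With 5 kb before the start instead of 1 kb, Gstm7 joined the genes with an island in dKO only, through the island that also touches Gstm6.

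Merged across both lists, the window held 29 regions, of which 11 had islands in both lists, 18 in dKO only and 0 in WT only. Over the genome 28.1% of merged regions were in dKO only and 12.8% in WT only. All 13 WT islands of the window overlapped a dKO island (100%), and 18 of the 36 dKO islands overlapped a WT island (50%). No interval is given, because neighbouring islands of a locus chosen on this contrast are not independent draws. The 11 common regions had a median log2 ratio of -0.05, against -0.07 over all 45322 common regions. None of them was at least 1.5 times higher in dKO, against 11.1% over the genome, and 1 was higher in WT, against 14.6%. That region, chr3:107927001-107929800, lay in an intron of Gnai3, the gene of an inhibitory G protein subunit, with 391 counts in WT and 94 in dKO (-1.54, -1.86 to -1.21). Its dKO island was narrower, and per covered kb the ratio was 0.27. The common regions at Ampd2, an AMP deaminase, and at Gnat2, a transducin subunit, had ratios of 0.06 and -0.31. Gm12500, which shares the islands of Ampd2, was also at 0.06. Counted by its own islands as the members were, Gnat2 had 1986 counts in WT and 590 in dKO and was called higher in WT (-1.23, -1.36 to -1.10), with -0.11 per covered kb. Counted in the same way, Gnai3 had 5765 counts in WT and 2783 in dKO (-0.53), under the ratio of 1.5, with 0.1 per covered kb. The other common regions at Gnai3 were at 0.19, -0.31 and -0.13.

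**Figure D4:**
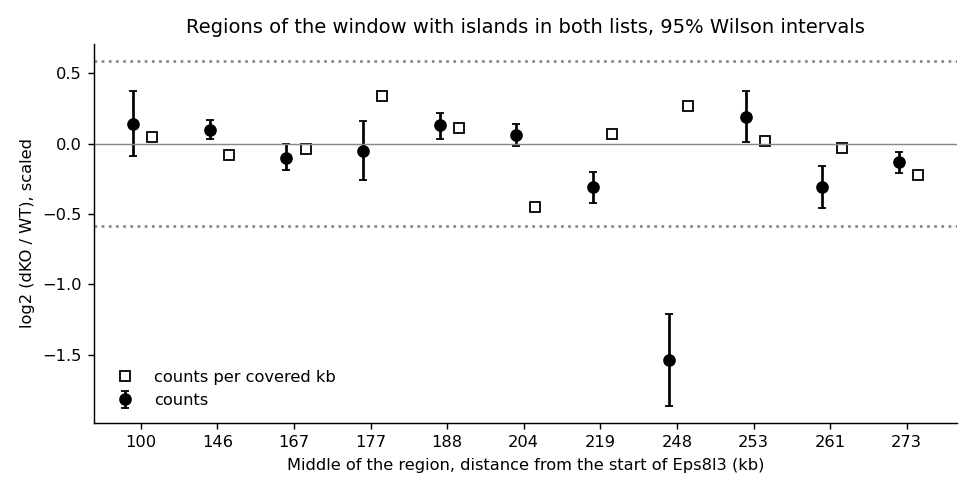
log2 ratio of dKO to WT for the 11 regions of the window with islands in both lists, in order along the chromosome and labelled by distance from the start of Eps8l3 (kb). Circles are scaled counts with 95% Wilson intervals, squares are counts per covered kb, and dotted lines mark a ratio of 1.5. By counts 10 of the 11 regions lie between the dotted lines and 1, in Gnai3, lies below at -1.54.

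Near-identical sequence can keep reads out of a gene family, because only uniquely mapped reads were kept. The coding sequences of the 7 Gstm genes were 69.6% to 89.5% identical over 21 pairs. Within the body of each member, 89.5% to 100% of the 50-base sequences occurred once in the mm9 genome. Over the WT gap this share was 97%, and it was 99.4% for 100 bases. Of 183 bins of 2 kb in the window, 3 had less than 50% unique sequence, all between Gstm2 and Gstm1, at 111 to 115 kb from the start of Eps8l3. Their shares of unique 50-base sequences were 20.9%, 0.0% and 0.45%. Gstm2 is on the minus strand, so these bins lie upstream of its start. Whether this kept reads out of the flank of Gstm2, which had no island, was not tested. Read length was not given in the sources used here.

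**Figure D5:**
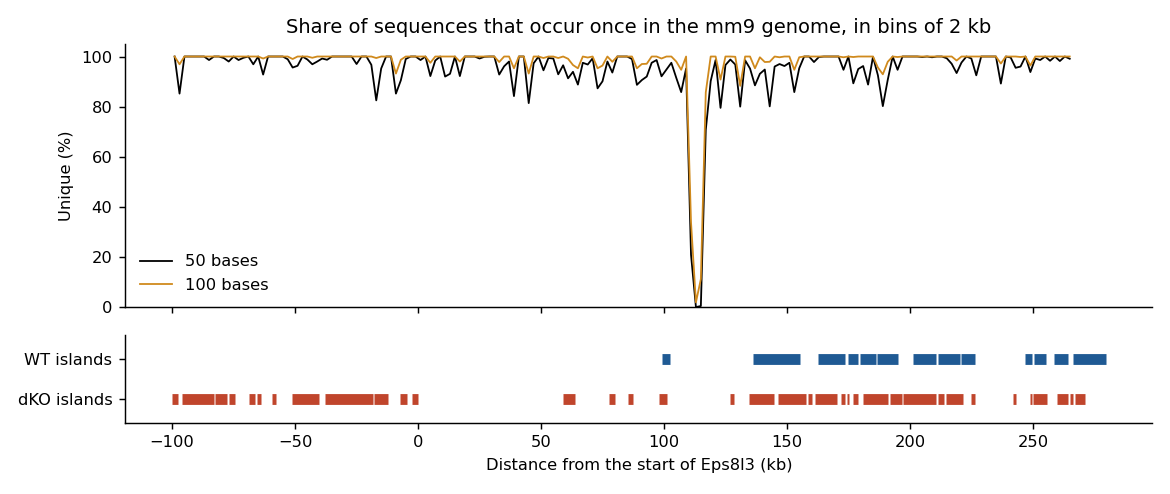
Share of 50-base and 100-base sequences that occur once in the mm9 genome, in bins of 2 kb along the window, above the islands of both lists, against distance from the start of Eps8l3 (kb). Uniqueness falls below 50% in 3 bins at 111 to 115 kb, where neither list has an island, and stays at 81.4% or more over the part of the WT gap inside the window.

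Genes of glutathione metabolism, of the Nrf2 pathway and of the Eps8 family were taken from 4 lists chosen with results of these data known. Of their 50 genes, 46 had islands in both lists, 9 were at least 1.5 times higher in dKO and 2 in WT. Of all 14541 protein-coding genes that both lists touch, 14.9% and 15.0% were called this way, and the median log2 ratio was -0.08. Among 19 other glutathione transferases, 16 had islands in both lists, 4 were higher in dKO and 1 in WT, with a median of -0.13. The largest ratios were 1.41 for Gsta3, 1.12 for Gstp2, and 1.04 each for Gstp1 and Gsta4, and the lowest was -0.71 for Gstt1. Gstp1 and Gstp2 are neighbouring paralogs, and how much of their sequence maps uniquely was not tested.

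In the list for glutathione synthesis and recycling, 3 of 12 genes were higher in dKO and 1 in WT, with a median of -0.06. Gpx4, which reduces lipid peroxides, was higher in dKO, with 57.48 CPM in WT and 198.2 CPM in dKO (log2 ratio 1.79). So were Chac1 (0.85), which breaks down glutathione, and Gsr (0.65), which recycles it. The island at Gpx4 was 15.2 kb wide in WT and 54.4 kb in dKO. Per covered kb, Gpx4 was at -0.05, Chac1 at -0.03 and Gsr at -0.2. Slc7a11, the cystine importer, was higher in WT, with 24.92 CPM in WT and 4.94 CPM in dKO (-2.33). Of 14 genes of the Nrf2 pathway, 13 had islands in both lists and only Hmox1, a heme oxygenase, passed the ratio of 1.5, at 0.71, whereas Nfe2l2, the gene of Nrf2 itself, was at -0.25. Of 5 genes of the Eps8 family and its partners, only Eps8 passed it, at 0.82. Per covered kb, 1 of the 46 genes was higher in dKO (Gstp2, at 0.61) and 5 in WT. Both genes called higher in WT by counts lost that call per covered kb, with Slc7a11 at 0.03 and Gstt1 at -0.20. The 5 called higher in WT per covered kb were other genes, namely Gsto1 (-0.59), Gstcd (-0.70), Chac2 (-1.63), Mafg (-0.63) and Eps8l1 (-0.59), and Mafg was at 0.50 by counts.

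The lists as a whole were of unequal depth, with 82668007 island counts in WT and 57665047 in dKO. Once scaled to these totals the islands were about equally dense, with medians of 1.72 CPM per kb in WT and 1.71 in dKO. All 8 markers of CD8 T cells had islands in both lists, with 1611 CPM in WT and 1634 CPM in dKO when an island shared by neighbouring genes is counted for each. Among them Cd8a (-1.31) and Cd8b1 (-1.21), which are neighbours, were called higher in WT, and Thy1 (2.09) and Cd3e (1.39) higher in dKO. Island borders differed here too. Cd8a and Cd8b1 shared 1 WT island of 29951 counts, whereas their dKO islands were separate, with 8417 and 9033 counts. Cd3e and Cd3d shared 1 dKO island of 12395 counts, whereas their WT islands were separate, with 6799 and 13506 counts. Per covered kb the ratios were -0.28 for Cd8a, -0.09 for Cd8b1, -0.11 for Thy1 and 0.62 for Cd3e. Summed over 5 markers of B cells, islands had 303.6 CPM in WT and 417.7 CPM in dKO, with 3 of the 5 higher in dKO. Of these, Cd79b had 84.72 CPM over 26.6 kb in WT and 190.0 CPM over 71.2 kb in dKO (-0.26 per covered kb). Cd79a went the other way, at -0.21 by counts. The median log2 ratio of the 5 was 0.64 by counts and 0.0007 per covered kb. Over 3 markers of gamma delta T cells the sums were 201.6 and 260.7 CPM, over 2 of CD4 T cells 72.08 and 88.49, over 5 of myeloid cells 241.2 and 231.3, and over 3 of NK cells 80.61 and 80.72, with no island at Ncr1. The near equal NK sums joined genes that went opposite ways, Klrb1c (0.37) and Eomes (-0.90, and -1.05 per covered kb). In these lists Eomes and Cd14 (-0.70) were called higher in WT, and Blk (1.32) and Cd4 (0.62) higher in dKO. The part of other cell types and of depth in the islands at the Gstm cluster was not tested. Island counts do not resolve the floxed exons, so excision of Tcf7 and Lef1 was not checked.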

How the data were processed

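Reads were aligned by the authors to mm9 and kept at a mapping quality above 10. Replicates were then pooled by genotype, and islands were called at a window of 200 bp, a gap of 400 bp and an FDR under 0.01. The submitters' processing notes name Bowtie2 2.2.5 and SICER 1.1. Removal of duplicates is not stated. The 2 deposited lists give raw counts per island, not scaled for depth or width, and no input was analysed here. Columns of other series numbered 0.

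Positions were counted from 1. Counts were divided by the island total of their list (CPM), whole islands were assigned to genes (body and 1 kb before the start) and islands sharing at least 1 bp were merged. A ratio of 1.5 was called higher. With 1 pooled list per genotype no test was run, and 95% intervals are Wilson intervals of counting error. Such intervals treat reads as independent molecules, which without molecular identifiers they need not be, and an island's borders alone can change its count. Intervals of CPM sums in the plots are exact Poisson intervals.

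The members and gene lists were chosen with earlier results of these data known. Named genes were all members, all protein-coding neighbours of the window and up to 4 genes per pathway list with the largest ratio in either direction, whereas Gstt1, Nfe2l2, the genes called per covered kb and the gap in the WT list were added after their values were seen. Genes came from GENCODE vM1 on NCBIM37, which is mm9, with symbols missing there matched through RefSeq synonyms. Promoters came from RefSeq on GRCm38.p6 and were placed on mm9 by exact match. The 4 H3K27ac samples of WT and 3 of dKO are numbered replicates, and no source says whether each came from a separate animal.

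Scripts ran in Python 3.11.15 with pandas 2.3.3, numpy 2.4.6, SciPy 1.17.1 and numba 0.67.0, and merging and ratios were checked on simulated data. Alternatives changed the scaling, the flank, the filter on islands, how islands were joined, the overlap, the gene assignment, the ratio and the measure.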

Additional observations from a re-analysis of the deposited data

How the results depend on the processing

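The log2 ratio of the window (0.62) was 0.69 when scaled by the totals of common regions and 0.69 by their median ratio. It was 0.76 with 50 kb on each side, 0.38 over the joint span alone and 0.57 with islands of at least 200 counts, the last 2 under the ratio called higher. Per covered kb it turned to -0.17, because covered width grew more than the counts. The joint span (0.38) was at 0.45 under both other scalings, at 0.51 with counts cut to the span and at -0.21 per covered kb. After seeing the data, islands wholly inside the window (0.82) and islands with their middle in the span (0.96, which leaves out the WT island at Gstm4) were added, and so were the other placements of that island given above for the stretches. Islands joined within 5 kb left 1 region higher in dKO and 0 in WT, and counts per covered kb left 0 higher in WT. At 50% reciprocal overlap, 53.8% of WT and 19.4% of dKO islands of the window were shared. Gstm1 turned to 0.51 when counts were cut to the gene and to 0.22 per covered kb. Of the pathway genes, a ratio of 2 left 5 higher in dKO and 1 in WT, and counts per covered kb left 1 and 5. Why these values moved was not tested beyond the widths given. No paired analysis was possible because the replicates were pooled before islands were called, and for the same reason no replicate could be left out.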

Other observations

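Both motif cores were counted over all of the DNA of the locus, as a description. The 16 dKO islands in the WT gap held 76 Tcf/Lef cores (0.87 per kb) and 52 antioxidant response cores (0.60 per kb). The remaining 123.2 kb of the gap held 0.74 and 0.38 per kb, and the 13 WT islands of the window held 0.89 and 0.47 per kb. Base composition of these stretches was neither measured nor matched.

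Csf1, the first gene beyond the gap, lies outside the window. It had 1 WT island of 1422 counts (17.20 CPM) and 3 dKO islands of 1856 counts (32.19 CPM), with a log2 ratio of 0.90 (0.80 to 1.0) and of -0.34 per covered kb. Its values thus went the same way as the sums of the window, with a higher sum and fewer counts per covered kb in dKO. The common regions of the window, taken alone, had a median log2 ratio of 0.02 per covered kb.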
